A study of Mus musculus with 8 samples.

Results

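C/D box snoRNAs are short nucleolar RNAs, here those with a Snord symbol that lie outside the Gas5 and Rpl13a genes, and 71 of the 3514 features listed for these mouse macrophages were of this kind. They were taken by symbol from 526 snoRNA features, of which 501 matched an entry of the GENCODE mouse annotation, release 21. Of 78 features with a Snord symbol, 3 of Gas5 and 4 of Rpl13a were left out. The Ion Proton table listed 70 of the 71, and Snord123, at 1.39 and 1.07 reads per 1000000 counted (RPM) in total RNA of control and withdrawal cells, was in the SOLiD table only. A further 365 snoRNA features carry provisional Gm symbols, so that Snord3 (U3), Snord48, Snord25 to Snord31 and the imprinted Snord113, Snord114, Snord115 and Snord116 families were not found by symbol and are not described here.

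The cells were bone marrow-derived macrophages (BMDMs) of C57BL/6J mice, male and 10 weeks old, grown in medium conditioned by L929 cells, a fibroblast line that secretes Macrophage-Colony Stimulating Factor (M-CSF). Control cells kept M-CSF and treated cells were deprived of it for 36 h, a stimulus of apoptosis. The Ion Proton run held 2 control and 2 withdrawal libraries. The SOLiD run held 1 control and 1 withdrawal library of total RNA, and 1 of each made from RNA of 25 to 40 nt cut from a gel. The methods name total RNA as the input of the Ion Proton libraries and the labels name small RNA. The methods call the Ion Proton replicates biological, without saying whether they came from separate mice or cultures, so p-values measure the spread between these libraries.

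A C/D box snoRNA carries a C box near its 5′ end and a D box near its 3′ end. Proteins that include fibrillarin bind these boxes, and the bases upstream of the D box pair with ribosomal RNA and direct 2′-O-methylation of the paired nucleotide. Most are cut from introns of host genes, often genes of ribosomal proteins or translation factors. A few, such as U3, U8, U14 and U22, act in the cleavage of ribosomal RNA precursors. U13 was listed with them here, and its role was not tested.

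The sequences below are those of the 4 members with the largest rise among those past the threshold (Snord83b, and 3 copies of U14 in Hspa8) and of the 3 that fell in the Ion Proton run. They are given 5′ to 3′ in DNA letters, with the C box letters TGATGA and the D box letters CTGA in capitals where they lie in the first and the last 15 bases.
Snord83b, intron of Rpl3, mm10 chr15:80078498-80078591, minus strand: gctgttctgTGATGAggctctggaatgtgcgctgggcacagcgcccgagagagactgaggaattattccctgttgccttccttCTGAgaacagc
Snord14c, intron of Hspa8, mm10 chr9:40803583-40803668, plus strand: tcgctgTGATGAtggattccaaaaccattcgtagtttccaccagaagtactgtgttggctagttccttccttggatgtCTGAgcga
Snord14d, intron of Hspa8, mm10 chr9:40803995-40804080, plus strand: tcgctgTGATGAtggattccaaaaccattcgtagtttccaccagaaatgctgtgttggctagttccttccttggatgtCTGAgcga
Snord14e, intron of Hspa8, mm10 chr9:40804748-40804837, plus strand: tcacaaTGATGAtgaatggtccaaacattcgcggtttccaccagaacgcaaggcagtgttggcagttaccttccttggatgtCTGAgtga
Snord2, intron of Eif4a2, mm10 chr16:23108953-23109021, plus strand: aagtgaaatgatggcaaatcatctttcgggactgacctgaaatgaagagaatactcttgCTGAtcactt
Snord12, in Zfas1 where it overlaps an exon, mm10 chr2:167065276-167065365, plus strand: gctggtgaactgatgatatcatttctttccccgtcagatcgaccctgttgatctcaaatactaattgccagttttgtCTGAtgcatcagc
Snord52, in 1110038B12Rik where it overlaps an exon, mm10 chr17:34950952-34951017, minus strand: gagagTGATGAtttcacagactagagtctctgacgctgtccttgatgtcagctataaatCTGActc

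The C box letters were found in 41 of 71 members and the D box letters in 65, and 39 (54.9%) had both, against 2.21% of the other features with a sequence and 0 of 39 H/ACA box snoRNAs, the other large class. Searches were on the RNA strand only, and a member without the exact letters may hold a variant of the box. Members were 64 to 238 nt long, with a median of 79 nt. Of the 71, 68 lay in 50 host genes, with 17 in genes of ribosomal proteins, 33 in other protein-coding genes and 18 in non-coding genes, while Snord13 (U13), Snord104 and Snord118 (U8) had no host. An exact stretch of 18 nt or more was shared with another listed feature by 25 members, so that reads of these could be assigned to either, and up to 10 places per read were reported in the Ion Proton run.

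Depth was 6053130 to 7760142 counted reads in the Ion Proton libraries and 4039837 to 12178454 in the SOLiD libraries. Summed levels of 7 myeloid miRNAs were 68504 and 74484 counts per 1000000 (CPM) in Ion Proton control libraries and 51460 and 58616 CPM after withdrawal, with no overlap. In control and withdrawal cells the 5 of them listed for the SOLiD run summed to 388233 and 145246 RPM in total RNA and to 240569 and 99937 RPM in 25 to 40 nt RNA. In the SOLiD libraries epithelial miRNAs summed to 6343 to 9642 RPM and erythroid miRNAs to 2395 to 3991 RPM, against at most 10.6 and 8.26 CPM in the Ion Proton run. Fibroblast miRNAs summed to 134 to 185 RPM and endothelial ones to 37.6 to 49.3 RPM, against at most 23.3 and 1.99 CPM. The 2 neuronal miRNAs summed to 34.7 to 55.0 RPM and to at most 4.60 CPM, and 1 of them, miR-124-3p, was at 0 or not listed. The part of these miRNAs in the snoRNA results was not tested. RNA integrity numbers were 8.4 to 8.9 in the Ion Proton run, 8.4 (control) and 7.5 (withdrawal) in SOLiD total RNA, and 2.7 and 2.6 in the 25 to 40 nt RNA. Fewer cells and less RNA per cell cannot be told apart in these bulk libraries. The labels give library sizes of 130 to 155 nt in the Ion Proton run and 110 to 145 nt in the SOLiD run. Both ranges also held the miRNA reads and are narrower than the shortest member, 64 nt. Reads of members are therefore expected to come largely from fragments, and the amount of whole snoRNA was not measured.

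C/D box snoRNAs as a group took a small share of the reads, and that share moved in different directions in the 2 runs. In the Ion Proton run they took 4.16% and 3.69% of the counted reads in control cells and 3.54% and 3.55% after withdrawal. The groups did not overlap, but an exact two-sided permutation test gave p = 0.333, the smallest that 2 against 2 libraries allow. The same limit holds wherever Ion Proton groups are said here not to overlap. Members called in that run were picked from the same libraries, and the share of all features without overlap was not counted. In SOLiD total RNA the share was 1.70% (95% exact binomial interval 1.69 to 1.71) in the control library and 2.75% (2.74 to 2.76) after withdrawal. In the 25 to 40 nt RNA it was 0.557% (0.552 to 0.562) and 1.98% (1.97 to 1.99). These intervals cover counting error only. The share taken by miRNAs was lower after withdrawal in both runs, at 40.4% and 41.6% in control and 29.99% and 30.3% in withdrawal libraries of the Ion Proton run and at 82.2% and 41.3% in SOLiD total RNA. In the 25 to 40 nt RNA miRNAs took 87.4% of the reads in the control library and 45.1% in the withdrawal library. Both were above the miRNA shares of total RNA. Lengths of the counted reads were not known, so 25 to 40 nt names the gel cut and not the length of the reads. Of the reads outside miRNAs, C/D box snoRNAs took 6.97% and 6.32% in control and 5.06% and 5.09% in withdrawal libraries, and 9.55% and 4.69% in SOLiD total RNA. In the 25 to 40 nt RNA they took 4.42% of these reads in control and 3.61% after withdrawal. The direction in the SOLiD run thus depended on the denominator, in total RNA and in 25 to 40 nt RNA.

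Levels of single members ranged from 2.29 CPM (Snord7) to 9832 CPM (Snord58b) in the Ion Proton run. The mean over the 4 libraries was at least 1000 CPM for 10 members and at least 100 CPM for 39, and under 10 CPM for 7. Per 100 nt of length, Snord58b (14897 CPM), Snord2 (6757 CPM), Snord83b (3786 CPM), Snord49a (2443 CPM) and Snord99 (2258 CPM) were highest. In SOLiD total RNA the order per 100 nt was Snord49a (3435 RPM), Snord68 (1722 RPM), Snord2 (1660 RPM), Snord82 (1589 RPM) and Snord14c (1327 RPM). Snord58b, in an intron of Rpl17, ranked first in the Ion Proton run and 41 in SOLiD total RNA on this scale per length, and it shares stretches of sequence with 3 features of Gm symbol. It was at 11827 and 10581 CPM in control and 8125 and 8796 CPM in withdrawal libraries (log2 fold change -0.35 ± 0.09, edgeR adjusted p = 0.0537), and at 52.1 and 150 RPM in SOLiD total RNA. Snord49a, in an intron of 2410006H16Rik, was at 2243 and 1827 and then 1580 and 1385 CPM (-0.40 ± 0.13, adjusted p = 0.0908), and at 1675 and 3271 RPM in SOLiD total RNA. Neither passed the threshold as reported, and for both the 2 runs had opposite directions with no overlap between the Ion Proton groups. Across the 12 alternatives Snord58b was called lower in 8 (adjusted p from 0.000140 to 0.897) and Snord49a in 5 (0.000158 to 0.777), so these calls depended on scaling and filter. Snord99, in Snhg12, was at 2079 and 1861 and then 1189 and 1555 CPM (-0.47 ± 0.16, adjusted p = 0.117) and was called lower in 4 of 12 alternatives, and Snord82, in the nucleolin gene Ncl, was at 1126 and 880 and then 1076 and 949 CPM, where the groups overlapped.

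Of the 70 members tested in the Ion Proton run, 14 rose and 3 fell after M-CSF withdrawal at an adjusted p under 0.05 (edgeR quasi-likelihood test, adjusted by Benjamini-Hochberg over 2029 features), against 24.6% of all features called, 15.7% higher and 8.97% lower. Among the 63 members with a mean of at least 10 CPM the median log2 fold change was 0.09, beside 0.07 over all 852 features of that level. The members' share called, 17 of 70, was near the background share over all tested features, many of which had few reads. At 10 CPM or more 16 of the 63 were called, 25.4%, against 50.5% of the 852 features. Among other classes, 1 of 36 H/ACA box snoRNAs was called higher and 2 lower, 16 of 744 miRNAs higher and 84 lower, and 216 of 421 nuclear tRNAs higher and 13 lower. Of the 14 rises, 10 were called under each of the 12 alternative settings of this run, while the number of members called lower went from 0 to 20 with the scaling and the filter.

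**Figure D1:**
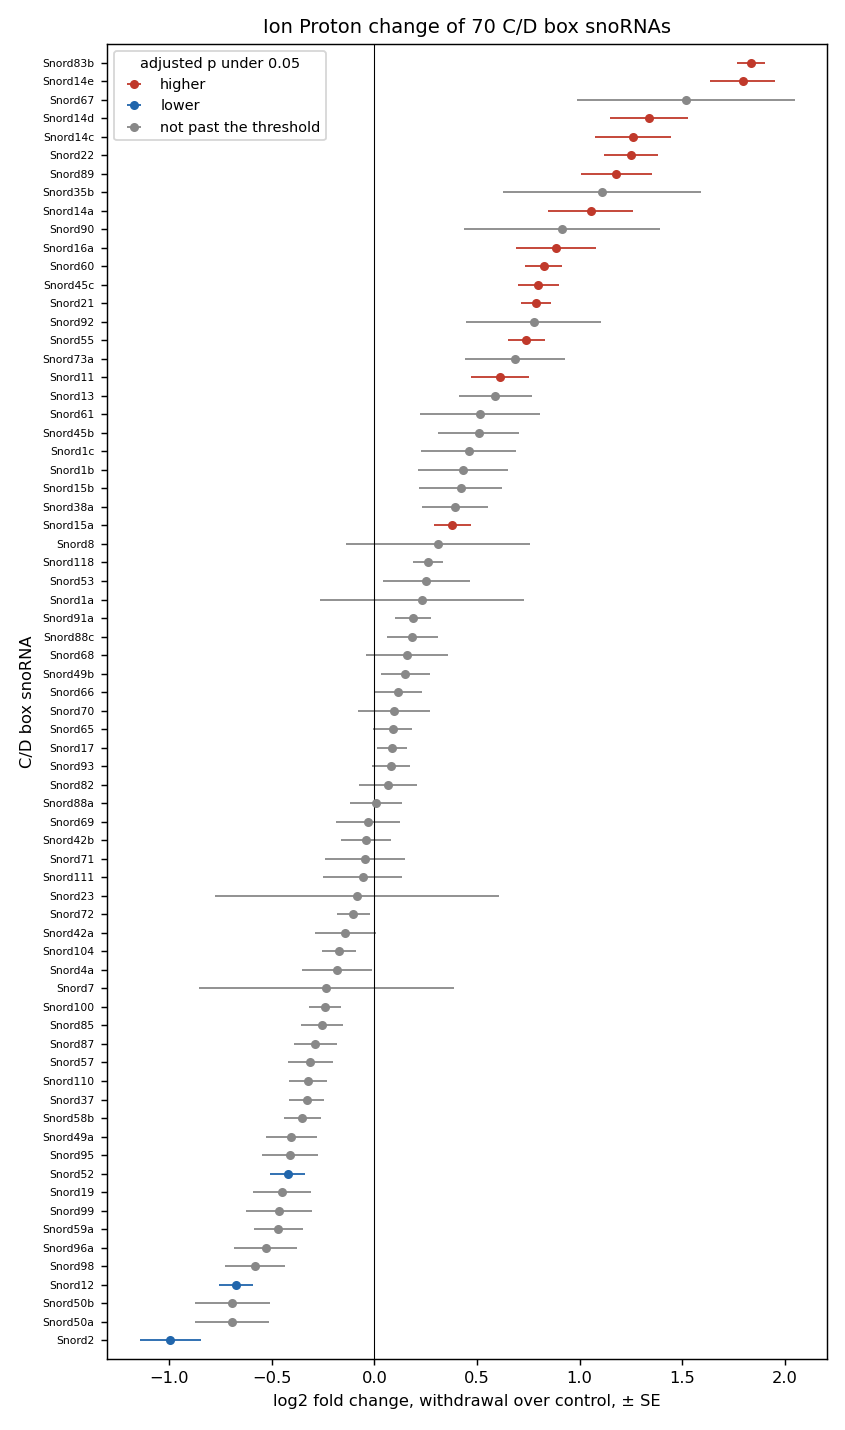
The log2 fold change (x axis, withdrawal over control, ± SE) of each of the 70 C/D box snoRNAs (y axis) in the Ion Proton run, with 2 libraries per group. Members called higher (14, red) reach 1.83 in Snord83b, and members called lower (3, blue) reach -0.995 in Snord2.

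Snord83b, in an intron of the ribosomal protein gene Rpl3, had the largest change. It was at 1659 and 1548 CPM in control libraries and 5544 and 5485 CPM after withdrawal. Both withdrawal libraries were far above both controls, and the log2 fold change was 1.83 ± 0.07 (SE, n = 2 per group, 3.57-fold, edgeR adjusted p = 0.000689). It shares no stretch of 18 nt with another listed feature. In SOLiD total RNA it went from 384 RPM (95% Wilson interval 369 to 401) to 1477 RPM (1456 to 1499), a log2 ratio of 1.94. In the 25 to 40 nt RNA it went from 160 to 1752 RPM, a log2 ratio of 3.44. The limma fit of both runs gave 1.83 ± 0.12 (adjusted p = 0.00132), and Snord83b was the single member called under all 14 alternatives of that fit.

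The copies of Snord14 (U14), which acts in cleavage of the precursor of 18S ribosomal RNA and guides a methylation, rose in the Ion Proton run. Snord14c was at 103 and 72.3 CPM in control and 207 and 199 CPM in withdrawal libraries, a log2 fold change of 1.26 ± 0.19 (edgeR adjusted p = 0.0139). Snord14d was at 103 and 71.7 CPM, then 220 and 207 CPM, with 1.34 ± 0.19 (adjusted p = 0.0123). Snord14c and Snord14d are identical at 84 of 86 aligned positions, and their levels differed by less than 10% in each Ion Proton library, so the split of reads between them is uncertain. How reads that fit both were counted is not stated, so their calls may not be separate results.
Snord14e, at 13.3 and 15.6 CPM in control, was at 52.9 and 43.8 CPM after withdrawal, with 1.80 ± 0.16 (adjusted p = 0.00335), and is 79.6% identical to Snord14c. Snord14a, in an intron of Rps13 on chromosome 7, was at 5.28 and 6.27 CPM and then at 12.7 and 10.4 CPM, with 1.05 ± 0.21 (adjusted p = 0.0268), a call that was kept in 7 of 12 alternatives. No Ion Proton withdrawal value of the 4 copies overlapped a control value of the same copy (exact two-sided permutation p = 0.333 for each). Summed, the 4 copies went from 225 and 166 to 492 and 460 CPM in the Ion Proton run, from 862 to 3899 RPM in SOLiD total RNA and from 288 to 1388 RPM in the 25 to 40 nt RNA. Any reads counted for several copies would enter these sums repeatedly.

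The other members of the pre-ribosomal RNA cleavage list did not all change alike. Snord22 (U22), in Snhg1, rose from 26.4 and 21.7 to 56.6 and 54.0 CPM (log2 fold change 1.25 ± 0.13, edgeR adjusted p = 0.00554), while in SOLiD total RNA it was at 287 and 284 RPM, a log2 ratio of -0.02. Snord13 (U13) was at 16.4 and 12.8 CPM and then 20.4 and 21.97 CPM (0.59 ± 0.18, adjusted p = 0.0830). Snord118 (U8) was at 450 and 425 and then at 510 and 499 CPM (0.26 ± 0.07, adjusted p = 0.0698). Neither passed the threshold as reported, each was called higher in 1 of 12 alternatives, and no control library of either reached a withdrawal library. Of the list's 7 measured members, 5 rose and 0 fell in the Ion Proton run, where 15.7% of all features were called higher and 8.97% lower. Of these 5, 4 are Snord14 copies that share sequence. Snord3 was not among the members, and in the fit of both runs 3 of the 7, which are Snord14c, Snord14d and Snord14e, were called higher.

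A further 5 members were called higher in both fits. Snord55 was at 909 and 860 and then 1361 and 1487 CPM (0.74 ± 0.09, edgeR adjusted p = 0.00763). Snord21, in an intron of Rpl5, was at 225 and 221 and then 375 and 367 CPM (0.79 ± 0.07, adjusted p = 0.00359).
Their groups did not overlap. Snord60 was at 126 and 120 and then 222 and 198 CPM (0.82 ± 0.09, adjusted p = 0.00587). Snord45c was at 243 and 235 and then 434 and 368 CPM (0.80 ± 0.10, adjusted p = 0.00895). Snord89 was at 78.0 and 58.6 and then 162 and 137 CPM (1.18 ± 0.17, adjusted p = 0.0137). All 5 were also higher in the SOLiD withdrawal library of total RNA, with log2 ratios from 0.44 (Snord21) to 1.71 (Snord55). Snord16a, in Rpl4, rose in the Ion Proton run (0.88 ± 0.20, adjusted p = 0.0375) and had the highest SOLiD ratio, 2.63, at 11.8 and 78.0 RPM, but was not called in the fit of both runs (adjusted p = 0.0725). Snord11 (0.61 ± 0.14) and Snord15a (0.38 ± 0.09), named after their values were seen, were called in 4 and 2 of 12 alternatives.

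The 3 members that fell were among the more abundant ones. Snord2, in an intron of the translation factor gene Eif4a2, was at 6937 and 5630 CPM in control and 3377 and 2707 CPM in withdrawal libraries, with a log2 fold change of -0.995 ± 0.15 (edgeR adjusted p = 0.0148). In SOLiD total RNA it was at 1227 RPM (1199 to 1256) and 1064 RPM (1045 to 1082), a log2 ratio of -0.21, and it was also lower in the 25 to 40 nt RNA. Snord12 was at 1529 and 1481 and then 871 and 946 CPM (-0.67 ± 0.08, adjusted p = 0.00860). Snord52, named after its values were seen, was at 864 and 785 and then 584 and 601 CPM (-0.42 ± 0.08, adjusted p = 0.0267). No control library of these 3 overlapped a withdrawal library. In SOLiD total RNA, Snord12 went from 196 to 397 RPM and Snord52 from 195 to 232 RPM, both opposite to the Ion Proton run. With scaling to miRNA features none of the 3 was called lower, and Snord2 (-0.67, adjusted p = 0.0762) and Snord12 (-0.35, adjusted p = 0.0726) kept their direction.

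**Figure D2:**
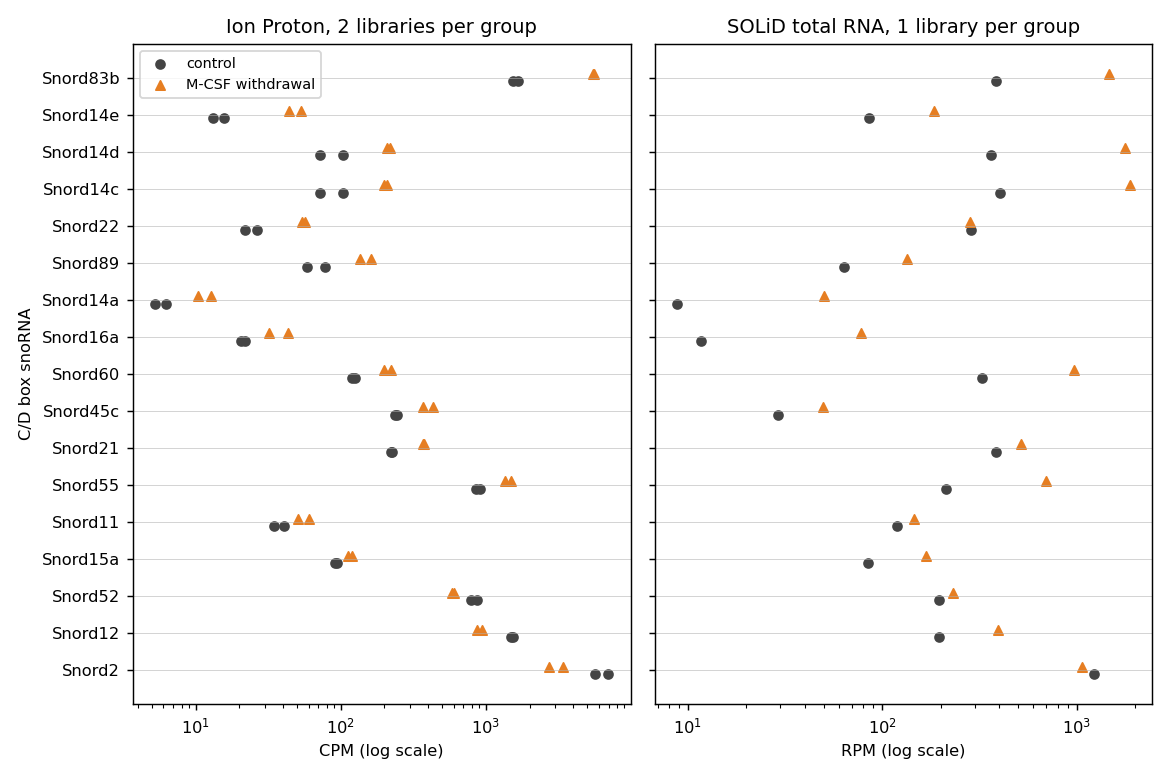
Levels on log scales of the 17 C/D box snoRNAs called in the Ion Proton run, with CPM of 2 control (circles) and 2 withdrawal (triangles) libraries on the left and RPM of 1 library each of SOLiD total RNA on the right. The 14 rises, which were called from the Ion Proton libraries, separate in that panel. Of these, 13 are also higher in SOLiD, where 49 of 69 members with at least 10 RPM are higher. Snord12 and Snord52 are lower on the left and higher on the right.

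Among members often used as references for RT-qPCR of small RNAs, whether Snord95 and Snord96a were called depended on the setting. Snord61, Snord68, Snord70 and Snord72 were called in 0 of 12 alternatives of the Ion Proton fit. Of the 6 measured (Snord61, Snord68, Snord70, Snord72, Snord95 and Snord96a), none passed the threshold in either fit as reported, and their log2 fold changes between the Ion Proton groups lay from -0.53 to 0.52. Snord70 was at 30.7 and 25.2 CPM in control and 26.1 and 31.6 CPM after withdrawal (0.10 ± 0.18), where the groups overlapped. Snord72 was at 103 and 103 CPM and then 93.1 and 92.2 CPM (-0.10 ± 0.08), where they did not. Snord68 was at 979 and 907 and then 830 and 1196 CPM, where the groups overlapped. Snord96a (-0.53 ± 0.16, adjusted p = 0.0773) and Snord95 (-0.41 ± 0.14, adjusted p = 0.105), both in Rack1, were lower in each withdrawal library than in each control. Snord96a was called lower in 6 of 12 alternatives and Snord95 in 5, among them RLE scaling, TMM over the features that are not miRNA, a minimum count of 50 and DESeq2 (adjusted p = 0.00162 and 0.000570). With TMM over miRNA features neither was called (adjusted p = 0.517 and 0.774). Snord61 was at 52.5 and 31.9 and then 50.1 and 66.2 CPM (0.52 ± 0.29). In SOLiD total RNA, Snord61 had a log2 ratio of 1.95, from 66.2 to 259 RPM, and Snord72 one of 0.07. A p that misses the threshold does not show that these members did not differ.

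Guides of U6 snRNA methylation were scarce. Snord7, Snord8 and Snord67 had means of 2.29, 6.48 and 7.28 CPM, under the 10 CPM used for medians, and none was called as reported. Snord67 was at 2.19 and 5.57 CPM in control and 7.97 and 13.4 CPM in withdrawal libraries (1.52 ± 0.53, adjusted p = 0.119) and was called higher in 2 of 12 alternatives.

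Members within 1 host gene could change by different amounts. In 14 hosts with 2 or more tested members, the Ion Proton log2 fold changes of the members lay 0.001 (Snhg5) to 0.56 (2410006H16Rik) apart. The 3 Hspa8 members ranged from 1.26 to 1.80, and those of Rpl23a from -0.18 to -0.04. In Nop58, which encodes a core protein of C/D box particles, Snord11 was called at 0.61 and Snord70 was at 0.10. In Rabggtb, Snord45b was at 22.4 and 16.0 and then 26.2 and 26.6 CPM (0.51 ± 0.20, adjusted p = 0.151) and had a log2 ratio of -1.07 in SOLiD total RNA, from 247 to 117 RPM, and its host mate Snord45c was at 0.74 there. By host type, 6 of 17 members in ribosomal protein genes were called higher and 0 lower, with a median log2 fold change of 0.38, 5 of 33 higher and 1 lower in other protein-coding genes (0.08), and 3 of 17 higher and 2 lower in non-coding genes (0.08). Over all features 15.7% were called higher and 8.97% lower, and the difference between host types was not tested.

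The fit of both runs, with run as a term, took 3 control and 3 withdrawal libraries and called 9 of 70 members higher and 0 lower, against 17.3% of 1701 features called, 11.6% higher and 5.70% lower. At an unadjusted p under 0.05 it had 18 members higher and 7 lower, and the Ion Proton fit had 18 higher and 18 lower. It shares the Ion Proton libraries with the first fit, so the 9 calls, which were all called higher in the first fit too, are not independent of it. The median of the members was 0.14, and of all features of that level 0.25. In this fit the largest changes were Snord83b (1.83), Snord14d (1.63 ± 0.27, limma adjusted p = 0.0146), Snord14c (1.55 ± 0.27, adjusted p = 0.0175) and Snord14e (1.48 ± 0.24, adjusted p = 0.0146). Without control replicate 2, withdrawal replicate 1 or withdrawal replicate 2 of the Ion Proton run, 1 member was called higher, and without control replicate 1 it was 3.

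The 2 runs agreed in direction for 37 of 63 members with at least 10 CPM and at least 10 RPM, 27 higher and 10 lower in both. Of the 26 with opposite directions, 17 were lower in the Ion Proton run and higher in SOLiD total RNA. Of the 14 members that rose in the Ion Proton run 13 were also higher in SOLiD total RNA, and of the 3 that fell 1 was also lower. Of members with at least 10 RPM in either library of SOLiD total RNA, 49 of 69 were higher there, beside 657 of 1154 features. Agreement of direction was not counted over all features. Among the members of opposite direction, those with the largest of the smaller of both changes were Snord12, Snord45b, Snord19 and Snord50a. Snord50a was at 455 and 333 and then 254 and 216 CPM (-0.69 ± 0.18, edgeR adjusted p = 0.0560), and it was at 94.1 RPM and then 131 RPM in SOLiD total RNA. It is identical to Snord50b at 71 of 72 positions, and the levels of the pair agreed within 2% in every Ion Proton library. Snord19 was at 236 and 219 and then 182 and 139 CPM (-0.45 ± 0.14, adjusted p = 0.0907) and had a SOLiD log2 ratio of 0.50. In the 12 alternatives of the Ion Proton fit Snord50a was called lower in 9 and Snord19 in 4.

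**Figure D3:**
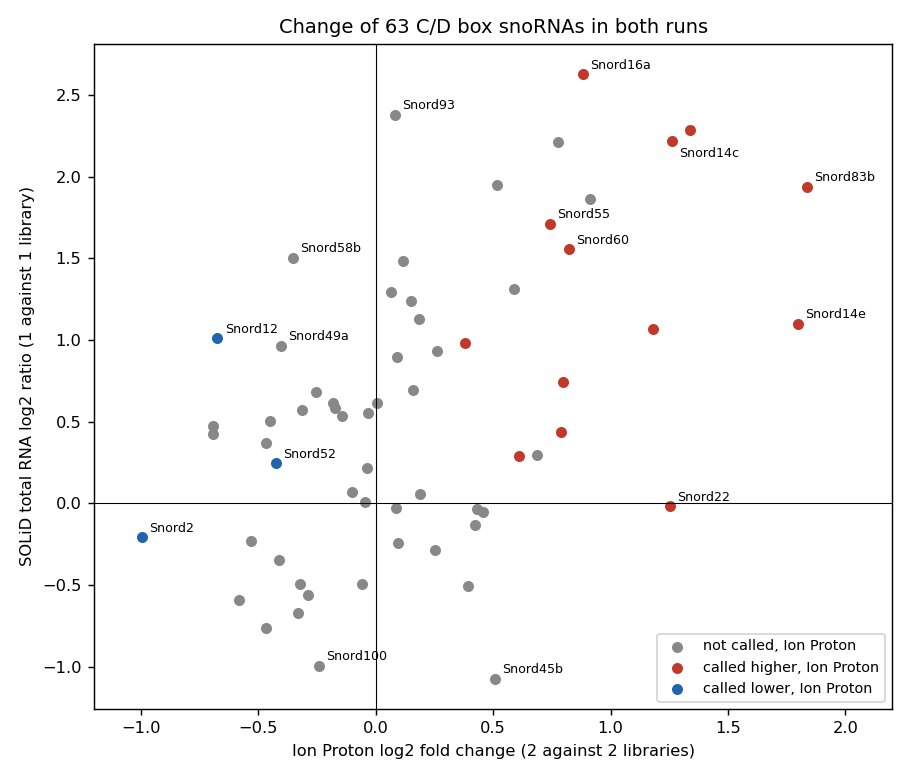
Each point is 1 of 63 C/D box snoRNAs with at least 10 CPM and at least 10 RPM, with the Ion Proton log2 fold change on the x axis and the SOLiD total RNA log2 ratio (1 against 1 library) on the y axis. The called rises lie at the right, 37 members share a direction and Snord12, Snord49a and Snord58b lie left of 0 and above it.

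Without replicates the SOLiD libraries gave values only. In total RNA, of 69 members with at least 10 RPM in 1 of the 2 libraries 21 were over 2-fold higher after withdrawal and 1, Snord45b, over 2-fold lower, against 42.1% and 14.1% of all 1154 features of that level. The median log2 ratio was 0.56, beside 0.48 over all features. In the 25 to 40 nt RNA 45 of 64 were over 2-fold higher and 1 lower, against 50.7% and 12.0% of 1116 features, with a median of 1.50 beside 1.03. These ratios are per counted read, and miRNAs took 87.4% of the reads in the 25 to 40 nt RNA of control cells and 45.1% after withdrawal.

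In control cells most members were less abundant in the 25 to 40 nt RNA than in total RNA. Of 66 members with at least 10 RPM in either library 49 were over 2-fold lower and 1 over 2-fold higher, with a median log2 ratio of size selected to total RNA of -2.07 beside -0.33 over all features. After withdrawal 39 of 69 were over 2-fold lower and 6 over 2-fold higher, and the median was -1.49 beside 0.06. Snord12 was at 27.5 RPM in the 25 to 40 nt RNA of control cells and 606 RPM (583 to 631) after withdrawal, a log2 ratio of 4.41 and the largest of the members. Snord118 was at 484 and 2485 RPM there, Snord68 at 41.6 and 603 RPM, and Snord60 at 303 and 1516 RPM. Snord110, by contrast, was at 11.7 and 16.8 RPM there and at 459 and 325 RPM in total RNA. Each of these values comes from a single library.

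**Figure D4:**
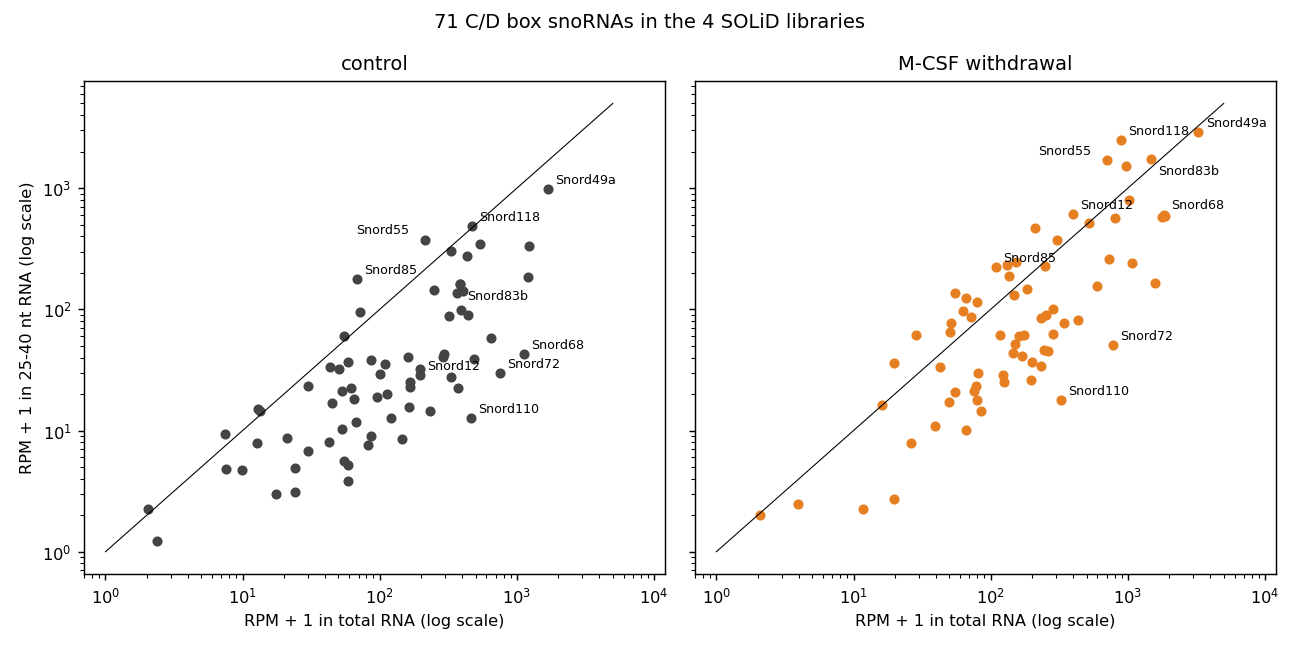
RPM + 1 of the 71 C/D box snoRNAs in total RNA (x axis) and in 25 to 40 nt RNA (y axis) of the SOLiD run on log scales, with control cells on the left and withdrawal cells on the right, and a line of equal values. Most control points lie below the line, and after withdrawal Snord118, Snord55, Snord12 and Snord83b lie above it.

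**Figure D5:**
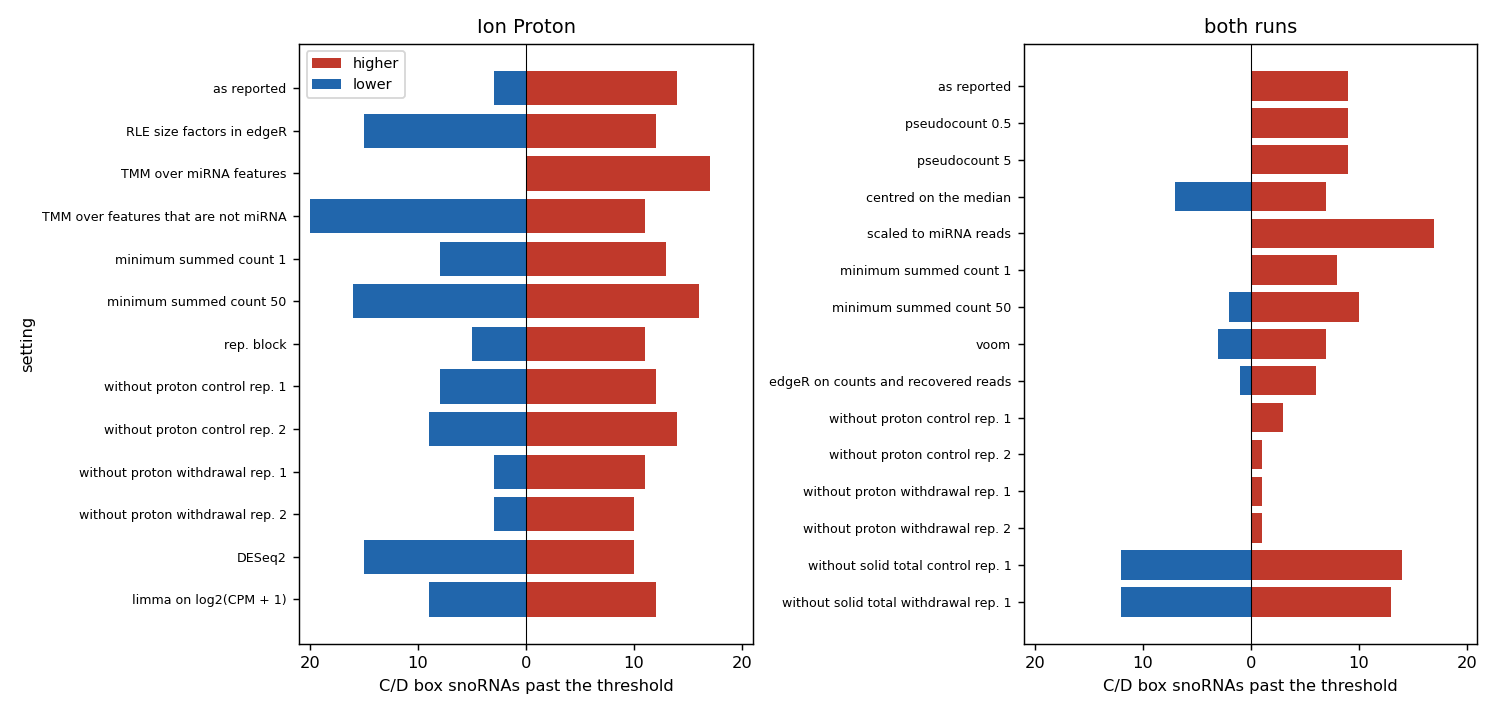
The number of C/D box snoRNAs called higher (red, right of 0) and lower (blue, left of 0) in the Ion Proton run and in both runs under each setting. In the Ion Proton run the rises stay between 10 and 17 and the falls between 0 and 20.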

How the data were processed

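Small RNA libraries of 8 samples were read from 2 deposited tables. Ion Proton reads had been trimmed by the authors with cutadapt 1.2.1, freed of those under 15 bases and mapped to mm10 with Bowtie2 2.2.4, and the authors deposited read counts per feature, not normalized. For the SOLiD run the authors mapped reads with LifeScope and deposited reads per 1000000 (RPM) on the listed features, with decimal commas; all values were whole multiples of 1 read (tolerance 0.01 read). Features were miRBase 21, tRNA and Ensembl 75 entries. Levels are counts divided by library totals (CPM). The quasi-likelihood test of edgeR 4.0.16 (R 4.3.3), with TMM scaling, was run where the summed count reached 5. Both runs were fitted with limma 3.58.1 on log2(CPM or RPM + 1), with run as a term. P-values were adjusted by Benjamini-Hochberg with a threshold of 0.05. SOLiD ratios have a pseudocount of 1. The fits were tested on simulated data. DESeq2 1.42.0, voom, other scalings and filters and leaving out each library were tried. Python 3.11.15, pandas 2.3.3, scipy 1.17.1, biopython 1.88 and matplotlib 3.10.9 were used. Sequences come from the deposited table, and from GENCODE for 1 member. Strand of counting is not given in the sources used here. The members and lists were chosen with earlier results of these data known. Named members were, by a fixed rule, common RT-qPCR references, guides of rRNA cleavage and of U6, the 5 most abundant per run, the largest changes shared by both runs, the 4 largest opposite changes, and those called in both fits. Any other member named was chosen after its values were seen.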

Additional observations from a re-analysis of the deposited data

Results flagged for a closer look

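For 7 named members, both Ion Proton withdrawal libraries lay on one side of both control libraries and the SOLiD total RNA library of withdrawal cells lay on the other side of its control, outside the counting intervals. Snord12, Snord19, Snord45b and Snord50a had been named for their opposite changes in the 2 runs, so their disagreement was set by that choice. The share of all features with this pattern was not counted. The difference between the runs was not tested. The SOLiD log2 ratio was 1.01 for Snord12, 0.50 for Snord19, 0.97 for Snord49a, 0.47 for Snord50a, 1.50 for Snord58b and 0.37 for Snord99, which were all lower in the Ion Proton run, and -1.07 for Snord45b, which was higher there.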

How the results depend on the processing

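Without replicates in the SOLiD run and with 2 libraries per group in the Ion Proton run, small changes cannot be told from scatter, and the counts of falls depended on scaling. In the Ion Proton run the members called lower, 3 as reported, were 15 with RLE factors, 0 with TMM over miRNA features, 20 with TMM over the other features, 8 with a minimum count of 1, 16 with a minimum of 50, 15 with DESeq2 and 9 with limma. The median log2 fold change was -0.031 with RLE, 0.42 with TMM over miRNAs, -0.11 with TMM over the others and -0.031 with DESeq2. Leaving out each library gave 10 to 14 higher, 3 to 9 lower and medians of 0.021 to 0.16. The Ion Proton sample names carry the letters A and B in both groups, and whether A and B were prepared as pairs is not stated. Differences between the replicates were not correlated between control and withdrawal (r = 0.0056 over 852 features), which cannot exclude a pairing. With the replicate block 11 members were higher and 5 lower. In both runs, centring on the median gave 7 lower and a median of -0.17, scaling to miRNA reads 17 higher and a median of 0.76, a minimum of 50 gave 2 lower, voom 3 lower and a median of -0.24, and edgeR on recovered reads 1 lower and -0.17. Leaving out each library gave 1 to 14 higher, 0 to 12 lower and medians of 0.035 to 0.19. Without either SOLiD library the run term took up the other, so those fits took their changes from the Ion Proton libraries alone. The highest counts in both directions came from them. The SOLiD median was 0.075 in total RNA and 0.47 in 25 to 40 nt RNA less the median of all features, and 1.93 in the latter at 50 RPM. The share ratio of withdrawal over control was 0.90, 1.03 of snoRNA reads, and 0.85 to 0.96 leaving out each library. The cause was not tested.

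Some members not called in a fit as reported changed sign under other settings of it. Not all were near 0: in both runs as reported Snord96a was at -0.47, Snord95 at -0.42 and Snord50a at -0.33. Snord58b, at 0.23 there, was called lower when either SOLiD library of total RNA was left out, which left only the Ion Proton change. In the Ion Proton run these were Snord70 and Snord82 with RLE (-0.021 and -0.050) and DESeq2 (-0.019 and -0.050), Snord7 and Snord72 with TMM over miRNAs (0.11 and 0.22), and Snord68, Snord70 and Snord82 with TMM over the others (-0.044, -0.10 and -0.13). In both runs they were Snord49a, Snord58b, Snord68 and Snord7 when centred (-0.29, -0.075, -0.021 and -0.064), Snord49a, Snord58b and Snord68 with voom (-0.27, -0.18 and -0.016), and Snord49a, Snord58b and Snord7 with edgeR (-0.28, -0.069 and -0.026). Scaled to miRNA reads they were Snord12 (0.48), Snord19 (0.45), Snord45b (0.57), Snord50a (0.29), Snord70 (0.57), Snord72 (0.54), Snord95 (0.21), Snord96a (0.15) and Snord99 (0.39). Leaving out libraries gave ranges, in the Ion Proton run, of -0.15 to 0.42 for Snord68, -0.92 to 0.73 for Snord7, -0.062 to 0.25 for Snord70, -0.28 to 1.02 for Snord8 and -0.095 to 0.14 for Snord82, and in both runs of -0.73 to 0.052 for Snord12, -0.51 to 0.032 for Snord19, -0.33 to 0.46 for Snord45b, -0.45 to 0.24 for Snord49a, -0.40 to 0.46 for Snord58b, -0.11 to 0.65 for Snord7 and -0.16 to 0.043 for Snord70.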
